A study of Mus musculus with 12 samples.

Results

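Antibody constant genes were described in RNA-seq libraries of blood and spleen from wild-type (WT) mice and mice without nuclear myosin 1 (KO). The members are 10 genes taken by symbol from the 46603 gene identifiers of each count table, and all 10 were found. The 7 heavy chain genes are Ighm, Ighd, Ighg3, Ighg1, Ighg2b, Ighg2c and Igha, and the 3 light chain genes are Igkc, Iglc1 and Iglc2. The remaining constant genes of these loci, Ighe, Iglc3 and Iglc4, were counted only in the totals over which shares were taken.

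A constant gene encodes the part of an antibody chain that sets its class. A resting B cell splices its rearranged variable exon to Ighm or Ighd and carries IgM and IgD on its surface. Class switch recombination later deletes the DNA from just upstream of Ighm to a downstream constant gene, so that Ighm and Ighd are lost. The same variable exon is then joined to an IgG, IgE or IgA constant gene. Plasma cells, which are frequent in the red pulp of the spleen and rare in blood, transcribe the chosen heavy gene and their light chain gene at very high rates, and their IgM and IgA are held in polymers by the J chain. Each B cell uses either the kappa constant gene Igkc or a lambda constant gene.

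The mice were C57/Bl6 animals of 8 months, and each of the 4 combinations of tissue and genotype had 3 libraries. The knockout removes nuclear myosin 1, a product of the Myo1c gene with its own start, and the labels name no other allele, agent or treatment in any group. Blood was drawn from the submandibular vein, and spleen RNA came from a piece of about 5 mm3, so that each spleen library samples only a small region of the organ. The labels do not say whether each library came from its own mouse, so p-values measure the spread between libraries.

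The labels and the RNA content did not go together. Globin took over 25% of the counts in 6 libraries, called globin-rich here, and at most that in the other 6, called globin-poor. The globin-rich kind comprised spleen KO 03, spleen WT 02, spleen WT 04, blood KO 02, blood KO 03 and blood WT 01. The globin-poor kind comprised spleen KO 01, spleen KO 04, spleen WT 01, blood KO 04, blood WT 03 and blood WT 04. Each kind thus has both tissue labels, with 3 libraries of each genotype. Summed over 6 red pulp macrophage markers, the level was 709 to 1139 CPM (a gene's counts per M, mega, counts of the library with globin left out) in globin-poor libraries and 15.9 to 40.4 CPM in globin-rich ones, so the 3 globin-rich libraries labelled spleen nearly lack a defining cell of that organ. The 3 globin-poor libraries labelled blood carry these markers at 709 to 1027 CPM, as the globin-poor ones labelled spleen do. Whether samples or labels were exchanged was not tested, so a value under a blood or spleen label here need not be one of that tissue. Library names below are the labels as given, and no library was moved to another group.

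Total counts were 9.32 M to 12.1 M in globin-rich and 23.1 M to 28.2 M in globin-poor libraries, of which 4.09 M to 5.83 M and 21.8 M to 27.4 M were not globin. A gene with 0 counts could therefore lie at up to 0.515 to 0.733 CPM in a globin-rich library and 0.109 to 0.138 CPM in a globin-poor one, taking 3 counts as the limit and counting error alone. Myo1c lay at 163 to 219 CPM in blood WT, 150 to 199.5 in blood KO, 58.5 to 180 in spleen WT and 128 to 170 in spleen KO libraries. Counts per gene do not separate its nuclear myosin 1 transcript, so this level checks no label.

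On the GRCm38 assembly the heavy chain genes follow each other on the minus strand of chromosome 12 in the order in which they are transcribed, from Ighm (chr12:113418558-113422730) through Ighd (chr12:113406604-113416324), Ighg3 (chr12:113356224-113361232), Ighg1 (chr12:113325240-113330523), Ighg2b (chr12:113302965-113307933) and Ighg2c (chr12:113285325-113288932) to Igha (chr12:113254830-113260236). Igkc lies on the plus strand of chromosome 6 (chr6:70726435-70726966), and Iglc1 (chr16:19061618-19062071) and Iglc2 (chr16:19198396-19200351) lie on the minus strand of chromosome 16. The only exon overlap of a member with another annotated gene is that of Iglc2 with the joining segment Iglj2, over 38 bases, and Iglj2 had 0 counts in every library.

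The sequences below show how far reads can tell the members apart, since every isotype share rests on that. They were taken from the GENCODE vM21 transcripts, run 5′ to 3′ along the coding strand, and were the annotated GRCm38 bases, not bases read from these mice. IgM, IgD and IgA held the largest shares in globin-rich libraries, and the first 60 bases of their first constant exons (chr12:113422671-113422730, chr12:113416265-113416324 and chr12:113260177-113260236, with no part singled out) are these.
Ighm: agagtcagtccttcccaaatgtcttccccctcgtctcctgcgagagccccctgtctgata
Ighd: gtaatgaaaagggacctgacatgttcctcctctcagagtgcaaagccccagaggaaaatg
Igha: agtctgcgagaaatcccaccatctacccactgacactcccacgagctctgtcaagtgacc
Over the coding part of that exon Ighm was 50.2% identical to Ighd and 50.4% to Igha, and no stretch of 50 bases of Ighm, Ighd, Igha, Igkc or Iglc1 occurred in another constant gene.

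The IgG subclasses are closer to each other. Their first exons were 78.4% to 88.3% identical, and they differ most in the hinge, the flexible joint whose cysteines bond the heavy chains together. The hinge exons (exon 2 of Ighg3 at chr12:113360529-113360576, of Ighg1 at chr12:113329844-113329882, of Ighg2b at chr12:113307261-113307326 and of Ighg2c at chr12:113288263-113288325) are given with the in-frame cysteine codons in capitals.
Ighg3: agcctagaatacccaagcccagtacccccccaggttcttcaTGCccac
Ighg1: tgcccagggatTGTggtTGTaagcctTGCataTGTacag
Ighg2b: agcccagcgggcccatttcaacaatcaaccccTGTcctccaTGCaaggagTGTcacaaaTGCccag
Ighg2c: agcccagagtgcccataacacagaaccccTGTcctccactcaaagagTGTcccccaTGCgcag
The hinge has 1 cysteine codon in Ighg3, 4 in Ighg1, 4 in Ighg2b and 3 in Ighg2c. Of all stretches of 50 bases, 5.49% in Ighg2c, 4.15% in Ighg2b, 1.58% in Ighg3 and 0.393% in Ighg1 occur in another constant gene, so most reads of that length or more have a single origin among these genes. The read length is not given in the sources used here.

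Among the lambda genes Iglc1 stands apart from Iglc2 and Iglc3. The same 75 coding bases (chr16:19061977-19062051 in Iglc1, chr16:19198758-19198832 in Iglc2 and chr16:19065587-19065661 in Iglc3) are shown with bases that differ from Iglc2 in capitals.
Iglc1: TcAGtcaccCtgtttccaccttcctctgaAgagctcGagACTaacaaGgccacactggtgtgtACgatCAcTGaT
Iglc2: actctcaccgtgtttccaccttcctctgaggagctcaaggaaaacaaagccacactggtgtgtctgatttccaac
Iglc3: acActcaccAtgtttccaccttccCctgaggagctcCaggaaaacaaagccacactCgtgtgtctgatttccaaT
Iglc1 differs from Iglc2 at 17 of these 75 bases and Iglc3 at 6. The window was chosen, among those without gaps, for the most differences between Iglc3 and Iglc2, so it shows that pair at its most different. Over the coding part of the exon Iglc2 and Iglc3 were 96.2% identical, and 7.65% of the 50-base stretches of Iglc2 occur in Iglc3. The split of counts between them is therefore less certain than the other values.

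Ighm and Ighd, the heavy chain genes used before class switching, were abundant in both kinds of library. Ighm, the heavy chain of IgM, lay at 555 to 1284 CPM (median 1088) in the 6 globin-rich libraries and at 2644 to 7261 CPM (median 4399) in the 6 globin-poor ones. Every globin-rich library was below every globin-poor library for Ighm. The fitted change was -1.12 ± 0.23 (log2, SE), globin-rich against globin-poor, with an adjusted p of 0.001 in edgeR's quasi-likelihood test over all 16858 genes tested, genotype and tissue label being terms of the fit. In bulk RNA, fewer cells of a type and less RNA per cell cannot be told apart, here and in every comparison below.

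Ighd, the heavy chain of IgD and a gene of resting B cells, was the exception among the members. It lay at 252 to 682 CPM (median 502) in globin-rich and at 439 to 843 CPM (median 569) in globin-poor libraries, and the ranges overlapped. Its fitted difference was 0.73 ± 0.19 higher in globin-rich libraries with TMM scaling (edgeR, adjusted p = 0.0047), but -0.30 with total counts without globin (adjusted p = 0.27) and -1.33 with library size alone (adjusted p = 9.2e-05). Its direction therefore rests on the scaling. These scalings also moved the median of all genes, from -0.12 with TMM to -1.13 and -2.16.

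The ratio of both genes does not depend on scaling. Ighd had 0.426 to 0.551 times the counts of Ighm in globin-rich and 0.0916 to 0.173 times in globin-poor libraries. The sum of 8 B cell markers ranged from 1187 to 2994 CPM in globin-rich libraries and from 2796 to 5422 CPM in globin-poor ones. Against that sum, Ighd lay in a narrow band of 0.182 to 0.231 in globin-rich and 0.155 to 0.182 in globin-poor libraries. Ighm lay at 0.419 to 0.467 of the marker sum in globin-rich and 0.942 to 1.99 in globin-poor libraries, so it was Ighm that stood higher per B cell marker count in the globin-poor kind.

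**Figure D1:**
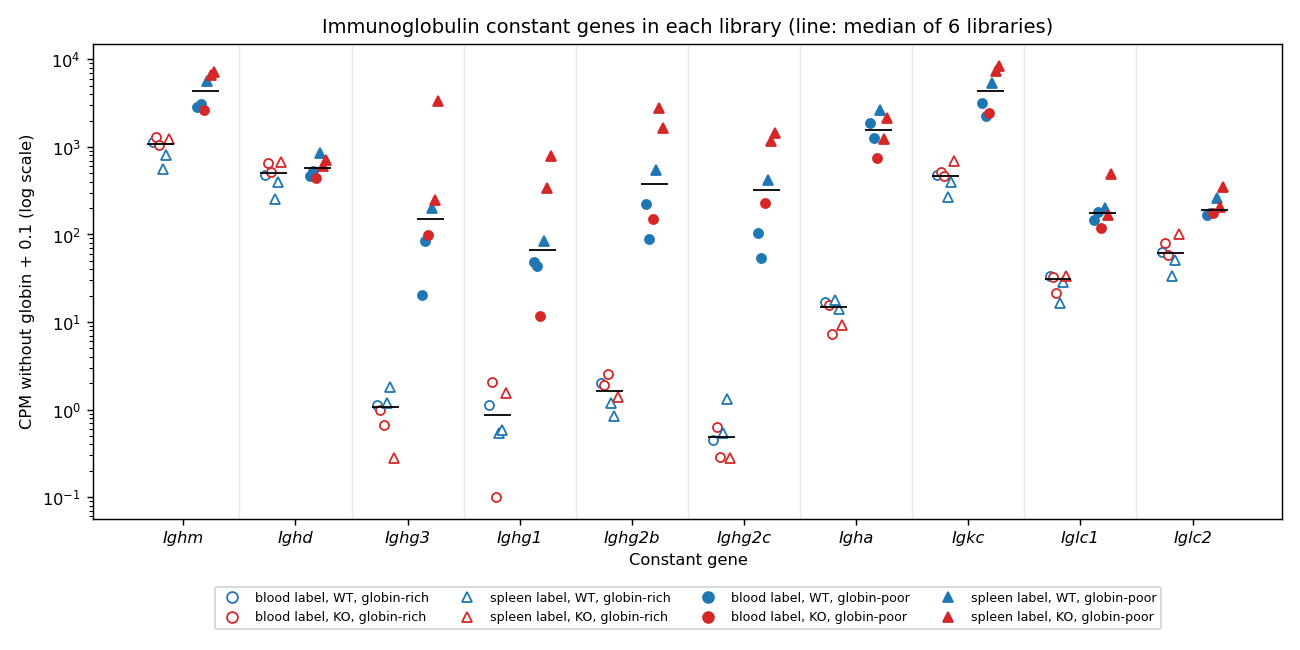
Level of each constant gene in each of the 12 libraries, as CPM without globin plus 0.1 on a log axis, with globin-rich libraries as open and globin-poor ones as filled symbols and black lines at the median of 6 libraries. The IgG genes and Igha lie far lower in every globin-rich library, Ighm, the kappa and the lambda genes lie lower by less, and the ranges of Ighd overlap.

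The switched isotypes were scarce in globin-rich libraries and abundant in globin-poor ones. Igha, the heavy chain of IgA, the class of mucosal surfaces, lay at 7.14 to 17.8 CPM (median 14.8) in globin-rich and at 743 to 2632 CPM (median 1580.0) in globin-poor libraries. Its fitted change was -5.86 ± 0.28 (edgeR, adjusted p = 1.1e-09). No globin-rich library reached the lowest globin-poor level.

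The IgG genes were lower still in the globin-rich kind, where single libraries held 0 to 13 counts of each. Ighg2b, of the IgG2b subclass, lay at 0.733 to 2.44 CPM (median 1.53) against 89.4 to 2766 CPM (median 382), a change of -7.30 ± 0.66 (edgeR, adjusted p = 3.4e-06). Ighg2c, the IgG2 gene that C57BL/6 mice carry in place of Ighg2a, lay at 0.183 to 1.22 CPM (median 0.389) against 53.6 to 1442 CPM (median 325), a change of -8.62 ± 0.47 (edgeR, adjusted p = 5.0e-09). For these antibodies, which bind activating Fc receptors, no library of either kind entered the other's range.

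Ighg3, a subclass typical of responses to polysaccharides, lay at 0.183 to 1.71 CPM (median 0.961) in globin-rich and 20.0 to 3375 CPM (median 149) in globin-poor libraries, with a change of -7.18 ± 0.98 (edgeR, adjusted p = 9.6e-05). Ighg1, the subclass favoured by interleukin 4, lay at 0 to 1.97 CPM (median 0.759) and 11.7 to 793 CPM (median 66.5), with a change of -6.17 ± 0.81 (edgeR, adjusted p = 6.8e-05). Summed over 6 libraries, the globin-rich kind held 27 counts of Ighg3, 29 of Ighg1, 49 of Ighg2b and 14 of Ighg2c, or 0.873 CPM (exact Poisson interval at 95%, for counting error only, 0.576 to 1.27), 0.938 (0.628 to 1.35), 1.59 (1.17 to 2.10) and 0.453 (0.248 to 0.760). The globin-poor sums were 246 times (Ighg1) to 1330 times (Ighg2c) as high in CPM, against 124 times for Igha and 4.66 times for Ighm. Without spleen KO 04 the ratios were 123 for Ighg1, 156 for Ighg3 and 116 for Igha, so Ighg1 then stood near Igha. Without spleen KO 01 the ratio of Ighg2b was 348, against 612 with it.

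All light chain members were lower in the globin-rich kind as well. Igkc, the only kappa constant gene, lay at 270 to 691 CPM (median 471) against 2232 to 8514 CPM (median 4313), a change of -2.22 ± 0.25 (edgeR, adjusted p = 5.3e-06). Iglc1 lay at 16.5 to 33.8 CPM (median 30.6) against 118 to 493 (median 174), a change of -1.87 ± 0.25 (edgeR, adjusted p = 2.3e-05). Iglc2 lay at 33.1 to 99.98 CPM (median 60.8) against 168 to 350.4 (median 192), the smallest change among the called-lower members at -0.79 ± 0.16 (edgeR, adjusted p = 0.00083). For all 3 genes the kinds did not overlap.

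In all, 9 of 10 members were called lower and Ighd called higher in globin-rich libraries. Of all 16858 genes tested, 54% were called in either direction and 29.9% were called lower. For 9 of 10 members every globin-rich library lay below every globin-poor one, and 45% of genes did so. The members' median change was -4.04 against -0.12 over all genes. The 9 lower calls held under every other scaling, filter and tool tried and without each library in turn. Markers of several cell types move with this difference. On the TMM scale, 5 of 6 red pulp markers were called lower in globin-rich libraries (median -6.18), 5 of 6 stromal and endothelial markers lower and 1 higher (-4.76), and 4 of 6 plasma cell markers lower (-1.70). All 5 erythroid (6.15) and all 5 platelet markers (5.07) were called higher, and of 5 neutrophil markers 4 were called higher and 1 lower (2.26). Their part in the members' difference was not tested.

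Per kilobase of exon the order differed between the kinds. The divisor counts all annotated exons of a gene, including those that only some of its transcripts contain, so different genes are compared only roughly. Ighg2c is divided by 1326 bases and Ighg2b by 2678. Their CPM medians in globin-poor libraries, 325 and 382, are in the reverse order of their medians per kb. In globin-poor libraries the medians ran from Igkc (8108 CPM per kb) and Ighm (2332) through Igha (592), Iglc1 (383), Iglc2 (314), Ighd (299.7), Ighg2c (245), Ighg2b (143) and Ighg3 (59.4) to Ighg1 (25.7). Only the ranges of Igkc and Ighm, and of Ighm and Igha, did not overlap between neighbours among these members. In globin-rich libraries they ran from Igkc (885), Ighm (577), Ighd (264), Iglc2 (99.4) and Iglc1 (67.4) to Igha (5.54), Ighg2b (0.573), Ighg3 (0.383), Ighg2c (0.293) and Ighg1 (0.293). There Iglc1 and Igha, and Igha and Ighg2b, were the neighbours without overlap.

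As shares of all heavy constant counts, which no scaling touches, the make-up of the globin-rich libraries was nearly uniform. Ighm held 66.4% ± 1.72 (SD, n = 6) and Ighd 32.4% ± 2.12, while Igha held 1.011% ± 0.631 and the 4 IgG genes together 0.266% ± 0.0789. The IgG share there rests on 14 to 29 counts per library, and its widest single-library interval, in spleen WT 02, was 0.219% to 0.617% (Wilson, 95%). Ighd held 29.5% to 33.5% in the 3 globin-rich libraries labelled blood and 30.4% to 35.3% in the 3 labelled spleen, and these ranges overlap.

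In globin-poor libraries Ighm held 53.3% ± 7.12, Ighd 7.61% ± 2.67, Igha 20.4% ± 9.04 and IgG 18.7% ± 15.6 (SD, n = 6). The kinds did not overlap in any of these 4 shares, nor in the share of Igkc among light chain counts, which was 77.8% ± 0.759 in globin-rich and 88.7% ± 3.63 in globin-poor libraries. In exact two-sided permutation tests each of the 5 differences gave p = 0.0022, the smallest that 6 against 6 libraries allow, and 0.0108 after Benjamini-Hochberg adjustment over 25 tests. Counts of Igkc were 3.34 to 3.76 times those of the 4 lambda genes together in globin-rich and 5.01 to 15.4 times in globin-poor libraries.

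**Figure D2:**
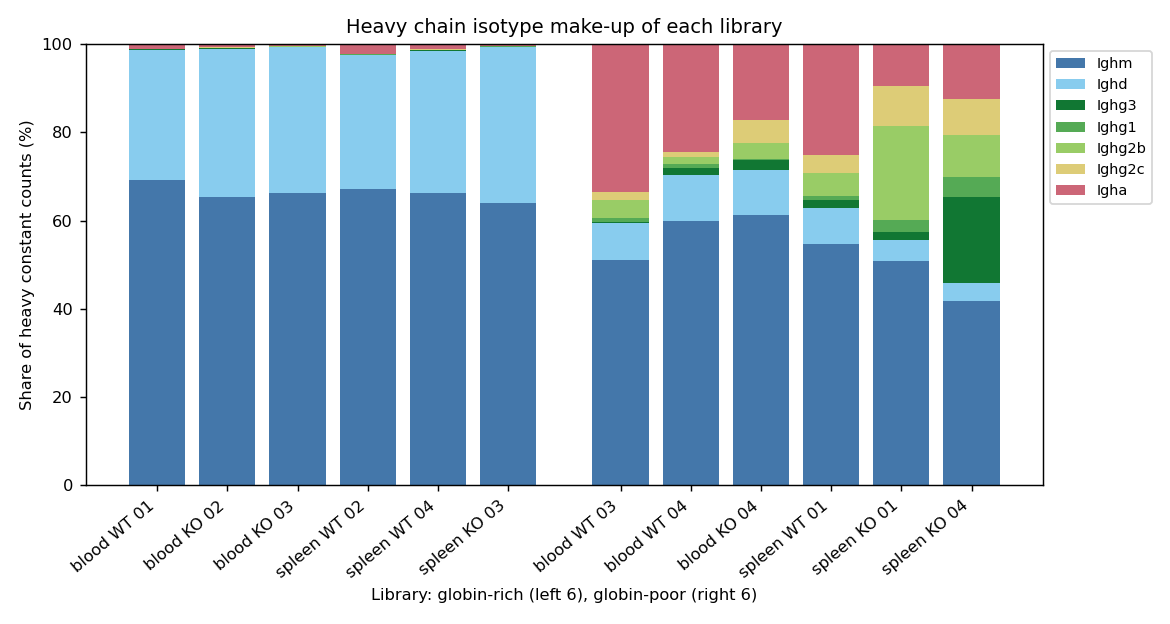
Share of each heavy chain gene in all heavy constant counts, in percent, with the 6 globin-rich libraries on the left and the 6 globin-poor on the right. Ighm and Ighd make up nearly all of each left-hand bar, while the right-hand bars differ among themselves in Igha and the IgG genes, which reach 41.8% together in spleen KO 04.

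The globin-poor libraries differed among themselves far more than the globin-rich ones. IgG held 6.99%, 5.26% and 11.3% of heavy counts in blood WT 03, blood WT 04 and blood KO 04, and 11.9%, 35.0% and 41.8% in spleen WT 01, spleen KO 01 and spleen KO 04. Both high values are KO libraries labelled spleen, while the lone KO library labelled blood lay just under the WT library labelled spleen. Igha held 33.6%, 24.5% and 17.2% in the same 3 libraries labelled blood, and 25.2%, 9.47% and 12.4% in those labelled spleen. Of IgA and IgG counts together, IgA made up 60.3% to 82.8% in 4 of these libraries, 21.3% in spleen KO 01 and 22.9% in spleen KO 04.

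The subclass that led within IgG was not the same in all globin-poor libraries. Their shares of IgG are given per exon length, which is 1326 bases for Ighg2c and 2512 to 2678 for the other IgG genes. Most of that gap lies in the last annotated exon, of 84 bases in Ighg2c and 1299 to 1433 in the others. Not every transcript contains that exon, so this measure can set Ighg2c too high against the other subclasses. In spleen KO 01, Ighg2b held 47.9%, Ighg2c 41.4%, Ighg1 6.14% and Ighg3 4.52%. In spleen KO 04, Ighg3 held 40.05%, Ighg2c 32.4%, Ighg2b 18.4% and Ighg1 9.12%. The level of Ighg3 in that library, 1344 CPM per kb, was the highest of any IgG gene in the 12 libraries. In CPM it was 3375, and the next library for Ighg3 was spleen KO 01 at 245. Ighg2c led in blood KO 04 with 63.4%, in spleen WT 01 with 50.2% and in blood WT 04 with 32.6%, and Ighg2b led in blood WT 03 with 44.3%. Per exon length the subclasses lay closest together in blood WT 04, with Ighg3 at 27.0%, Ighg2b at 26.9% and Ighg1 at 13.6%. By counts, not divided by length, Ighg2c led only in blood KO 04. Ighg2b then led in spleen WT 01, with 13502 counts against 10495 of Ighg2c. It also led by counts in blood WT 04, with 2097 against 1974 of Ighg3 and 1258 of Ighg2c. The leads in those 2 libraries therefore rest on the length used.

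**Figure D3:**
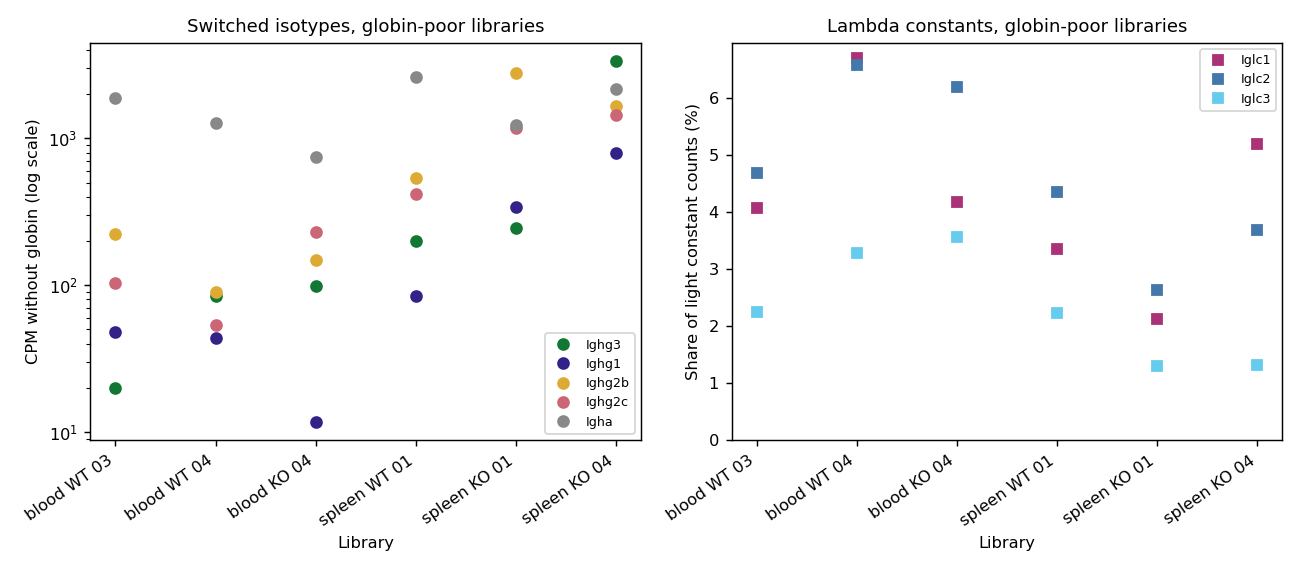
Left, CPM without globin (log axis) of the 5 switched heavy chain genes in each globin-poor library; right, share of light chain counts, in percent, of 3 lambda constant genes. The point of Ighg3 in spleen KO 04 stands above all others of that gene, and Iglc1 exceeds Iglc2 by a clear margin only in the same library.

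Lambda genes also varied between libraries. Iglc1 had 0.674 to 1.02 times the counts of Iglc2 in 5 globin-poor libraries and 1.41 times in spleen KO 04, where it reached 493 CPM against 118 to 203 CPM in the other 5. In globin-rich libraries the ratio was 0.338 to 0.552, below every globin-poor library. Light chain counts were 0.338 to 0.465 of heavy chain counts in globin-rich and 0.520 to 0.651 in globin-poor libraries, again without overlap.

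After the filter on low counts, edgeR's test called no constant gene and no other gene between genotypes in any of these comparisons with all their libraries. Within globin-poor libraries the share called was 0% of 16422 genes (138 had an unadjusted p under 0.05, DESeq2 called 5 and limma-voom 0). Within globin-rich libraries it was 0% of 11728 (799 unadjusted, DESeq2 31, limma-voom 0, and in edgeR 121 without the filter and 483 without blood KO 02, none of them a member). In libraries labelled blood it was 0% of 14939 (24 unadjusted, DESeq2 0, limma-voom 0) and in those labelled spleen 0% of 15362 (370 unadjusted, DESeq2 0, limma-voom 0). The members' values are therefore given as levels and as fitted differences that did not pass the test.

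In globin-poor libraries the IgG genes had the widest fitted differences. Ighg2c lay at 104, 53.6 and 420.5 CPM in blood WT 03, blood WT 04 and spleen WT 01, and at 229, 1184 and 1442 CPM in blood KO 04, spleen KO 01 and spleen KO 04, a difference of 2.31 ± 0.86 (log2, SE; edgeR, adjusted p = 1.0). Ighg2b lay at 222, 89.4 and 541 CPM in WT and at 149, 2766 and 1656 CPM in KO libraries in the same order, a difference of 2.41 ± 1.00 (edgeR, adjusted p = 1.0). In both genes blood KO 04 lay inside the WT range. Leaving out 1 library moved the difference of Ighg2c to between 1.86 (without blood WT 04) and 3.40 (without spleen WT 01), and that of Ighg2b to between 1.59 (without spleen KO 01) and 3.09 (without spleen WT 01). Ighg2b, Ighg2c and Ighg3 were the members with an unadjusted p under 0.05 in this comparison.

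Ighg1 lay at 48.2, 43.6 and 84.8 CPM in WT and at 11.7, 343 and 793 CPM in KO libraries, so the KO group held both the lowest and the highest values (difference 2.60 ± 1.12; edgeR, adjusted p = 1.0). Ighg3 lay at 20.0, 84.2 and 199 CPM in WT and at 99.3, 245 and 3375 CPM in KO libraries, a difference of 3.56 ± 1.38 (edgeR, adjusted p = 1.0) that was 0.89 without spleen KO 04 and 4.38 without spleen WT 01. The difference of Ighg1 was 1.59 without spleen KO 04 and 3.17 without blood KO 04. Tissue label is not balanced here, with 1 spleen label among WT and 2 among KO libraries. With the label as a term the differences of Ighg1, Ighg2b, Ighg2c and Ighg3 were 0.48 ± 1.43, 1.05 ± 0.70, 1.65 ± 0.31 and 2.13 ± 1.21, and the median over the members went from 0.60 to 0.22.

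The other members differed less in globin-poor libraries. Ighm lay at 2883, 3086 and 5712 CPM in WT and at 2644, 6605 and 7261 CPM in KO libraries (difference 0.48 ± 0.39), and Igkc at 3196, 2232 and 5431 CPM against 2419, 7429 and 8514 CPM (0.72 ± 0.47). Ighd lay at 468, 534 and 843 CPM against 439, 605 and 713 CPM (-0.08 ± 0.25). For Iglc1 the difference was 0.48 ± 0.45 and for Iglc2 0.24 ± 0.25. The genotypes overlapped in all 5 genes. The 6 plasma cell markers summed to 597 to 1196 CPM in WT and 510 to 1864 CPM in KO libraries of this kind, and spleen KO 01 and spleen KO 04 were highest in both that sum and the IgG genes; its part in the IgG levels was not tested.

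Igha differed from the IgG genes. In globin-poor libraries it lay at 1896, 1264 and 2632 CPM in WT and at 743, 1229 and 2160 CPM in KO libraries (difference -0.54 ± 0.39; edgeR, adjusted p = 1.0). In globin-rich libraries it lay at 17.0, 17.8 and 14.2 CPM in blood WT 01, spleen WT 02 and spleen WT 04, and at 15.4, 7.14 and 9.14 CPM in blood KO 02, blood KO 03 and spleen KO 03 (difference -1.01 ± 0.32; edgeR, adjusted p = 0.72). The CPM ranges of the genotypes overlapped in both kinds, and Igha was the member with an unadjusted p under 0.05 in globin-rich libraries.

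As a share of heavy constant counts Igha did not overlap between genotypes within either kind. Such a share also falls where other heavy genes rise. In CPM, spleen KO 04 held more Igha (2160) than blood WT 03 (1896) and blood WT 04 (1264), though its share was lower. It held 27.8% ± 5.06 in WT and 13.0% ± 3.91 in KO globin-poor libraries, and 1.45% ± 0.612 in WT and 0.569% ± 0.186 in KO globin-rich libraries (SD, n = 3). Each comparison gave an exact permutation p of 0.1, the smallest that 3 against 3 libraries allow, and 0.3125 after adjustment over 25 tests. The IgG share was 8.06% ± 3.47 in WT and 29.4% ± 16.0 in KO globin-poor libraries (exact permutation p = 0.2, adjusted 0.38), and 0.324% ± 0.0542 and 0.209% ± 0.0520 in globin-rich ones (exact permutation p = 0.2, adjusted 0.38), so the means were ordered oppositely in the kinds.

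When kind and tissue label were both held fixed, giving 4 sets of 3 libraries, every KO library lay below every WT library for Igha in all 4 sets, in CPM and in share. No other member kept a single order in all 4. Of 14544 genes averaging 1 CPM or more, 2.41% lay lower in KO libraries in all 4 sets and 1.75% lay higher, and this view was chosen after the values were seen. A fit over all 12 libraries with kind and label as terms, also added after seeing the data, gave Igha a difference of -0.69 ± 0.23 (edgeR, adjusted p = 0.84; from -0.88 to -0.59 without each library in turn). In the same fit Ighg2c differed by 1.37 ± 0.40 (adjusted p = 0.84), Ighg2b by 1.43 ± 0.60, Ighg3 by 1.67 ± 0.94 and Ighg1 by 1.24 ± 0.88, and 0% of 16858 genes were called (753 had an unadjusted p under 0.05, DESeq2 called 1 and limma-voom 0). Single libraries moved these IgG differences, that of Ighg1 to between 0.19 (without spleen WT 01) and 2.28 (without blood KO 04), that of Ighg3 to between 0.42 (without spleen KO 04) and 2.09 (without blood WT 04), and that of Ighg2b to between 0.97 (without spleen KO 01) and 1.86 (without blood KO 04). Without the filter on low counts that fit called 55 genes, Ighg3, Ighg2b and Ighg2c among them.

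Ighd was the remaining share that did not overlap between genotypes, in globin-rich libraries only. It held 29.5%, 30.4% and 32.3% in blood WT 01, spleen WT 02 and spleen WT 04 and 33.5%, 33.1% and 35.3% in blood KO 02, blood KO 03 and spleen KO 03, means of 30.7% ± 1.45 and 34.0% ± 1.18 (SD, n = 3; exact permutation p = 0.1, adjusted 0.3125). In globin-poor libraries the means were 8.91% ± 1.26 in WT and 6.31% ± 3.35 in KO libraries and overlapped. By level, Ighd differed by 0.41 ± 0.28, Ighm by 0.23 ± 0.32, Igkc by 0.22 ± 0.28, Iglc2 by 0.35 ± 0.21, Iglc1 by -0.15 ± 0.23 and Ighg2b by 0.32 ± 0.85 between KO and WT globin-rich libraries. Ighg3, Ighg1 and Ighg2c did not pass the filter on low counts there, so only 7 of 10 members were tested.

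**Figure D4:**
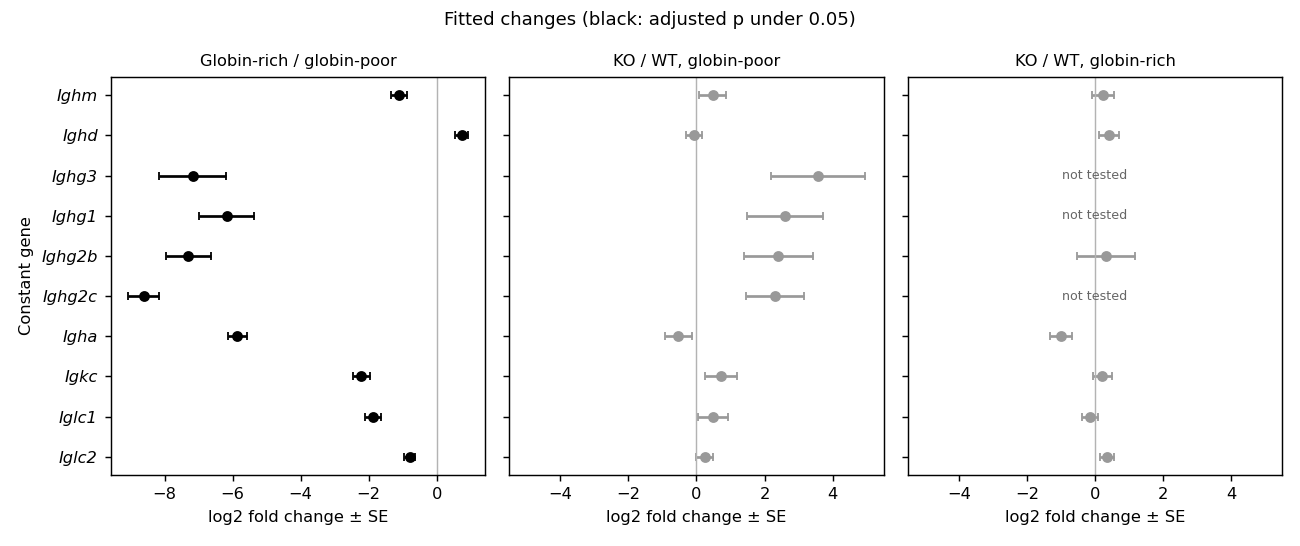
Fitted log2 fold changes with SE bars (edgeR) of the 10 constant genes for globin-rich against globin-poor libraries and for KO against WT within each kind; black points have an adjusted p under 0.05. All points of the left panel are black with Ighd alone above 0, a sign that turns with scaling by total counts, and no point of the KO panels is black.

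Compared by tissue label alone, the genotypes mixed the kinds, since blood WT held 1 globin-rich library and blood KO 2, and spleen WT 2 and spleen KO 1. The Igha difference was then -1.98 ± 1.82 in blood and 0.34 ± 1.88 in spleen labels (edgeR, adjusted p = 1.0 and 1.0), and with kind as a term -0.74 ± 0.32 and -1.01 ± 0.35 (edgeR, adjusted p = 1.0 and 1.0). Ighg1 differed by -1.46 ± 0.58 in blood and 2.48 ± 0.50 in spleen labels with kind as a term. The difference between these effects, in a fit over all 12 libraries, was 3.64 ± 1.32 (edgeR, adjusted p = 1.0). That value was 0.91 without blood KO 04 and 4.68 without blood KO 02. For such a difference 0% of 18118 genes were called (252 had an unadjusted p under 0.05, DESeq2 called 4 and limma-voom 0).

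Other genes of the antibody pathway were counted by lists chosen with earlier results of these data known, on the TMM scale. Of all genes tested, 29.9% were called lower and 24.1% higher in globin-rich libraries, and the lists' counts are to be read against these shares. Of 15 plasma cell genes, 8 were called lower and 1 higher in globin-rich libraries (median -1.03 against -0.12 over all genes), led by Jchain, the J chain, at -7.13 ± 0.28 (edgeR, adjusted p = 2.8e-10), Creld2, an endoplasmic reticulum protein, at -2.03 ± 0.19 (9.4e-07), and Derl3, a component of the machinery that clears misfolded proteins, at -4.78 ± 0.47 (1.3e-06). The member called higher was Edem1, which acts in the same clearance pathway, at 1.005. Of 16 B cell genes, 5 were called higher and 1 lower (median 0.22), led by Fcer2a, the low-affinity IgE receptor, at 1.33 ± 0.18 (edgeR, adjusted p = 2.6e-05), Cr2, a complement receptor, at -1.13 ± 0.19 (0.00023), and the inhibitory receptor Cd22 at 0.80 ± 0.21 (0.0049). These directions rest on the scaling. With total counts without globin, 10 of the 16 B cell genes were called lower and 0 higher (median -0.82 against -1.13 over all genes), and their summed CPM ranged from 1557 to 3998 where globin was high, against 3727 to 7616 where it was low.

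Of 15 tested genes of class switching and germinal centres, 4 were called lower and 2 higher (median -0.35), which together is a smaller share than the 54% called among all genes. Ung, which removes the uracils that activation-induced deaminase makes, differed by -2.51 ± 0.31 (edgeR, adjusted p = 1.3e-05), the mismatch repair gene Msh6 by -1.33 ± 0.18 (3.7e-05), and Bcl6, the germinal centre repressor, by 1.32 ± 0.18 (3.8e-05). Of 13 tested genes of cytokines and receptors that direct switching, 5 were called higher and 1 lower (median 0.42), led by Il5ra at 1.63, Tgfbr2 at 1.13 and Tgfb1 at 0.83. Of 11 antibody receptor and transport genes, 3 were called higher and 2 lower (median 0.31), led by Fcrl5, an IgG-binding receptor of B cells, at -2.85, the neonatal Fc receptor Fcgrt at -1.23, and the activating receptor Fcgr3 at 1.55. With total counts without globin no gene of these 3 lists was called higher, and 12, 5 and 6 were called lower (medians -1.30, -0.60 and -0.70). Between genotypes none of the genes of these 5 lists was called within either kind, where their medians lay between -0.20 and 0.50 in globin-poor and between -0.11 and 0.31 in globin-rich libraries.

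Among the chains that accompany the members, Jchain stood clearly apart between the kinds. It lay between 1.502 and 3.75 CPM in the globin-rich kind and between 390.2 and 1507 CPM in the globin-poor kind. Ighe, the heavy chain of IgE, had 0 counts in every globin-rich library and 1 to 21 counts, or 0.0440 to 0.847 CPM, in globin-poor ones. Those levels are near or below the 0.515 to 0.733 CPM that 0 counts allow in a single globin-rich library. Summed over each kind, the globin-rich level was at most 0.119 CPM (exact Poisson, 95%, counting error only), against 0.496 CPM in the globin-poor kind. The fitted difference of Ighe was -5.58 ± 1.92 (edgeR, adjusted p = 0.032), on these few counts. Iglc4 lay at 0 to 0.548 CPM and 0.264 to 1.41 CPM, ranges that overlap, and Iglc3 at 27.8 to 72.7 and 80.7 to 135 CPM, without overlap. With TMM scaling neither passed the test, with fitted differences of -1.33 ± 0.84 and -0.30 ± 0.16 (edgeR, adjusted p = 0.19 and 0.12). With total counts without globin both were called lower in globin-rich libraries, at -2.32 and -1.32 (edgeR, adjusted p = 0.025 and 4.3e-05). The call of both genes therefore rests on the scaling.

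Within the kinds, most members varied together and Igha least. After subtraction of each kind's mean from log2(CPM + 1), the 4 IgG genes correlated with each other at r = 0.641 to 0.888 over 12 libraries, Ighm with Igkc at 0.948 and Ighd with Iglc2 at 0.918. Igkc correlated with the IgG genes at 0.601 to 0.869, Ighm with them at 0.598 to 0.804 and Ighd with them at 0.270 to 0.468. Igha correlated with the other members at 0.0912 to 0.471. Each IgG gene held only 0 to 13 counts in a globin-rich library, so correlations with the IgG genes rest largely on the 6 globin-poor libraries. All these values describe libraries that share their depth and their cell make-up across all genes, and they carry no test.

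Outside the immunoglobulin loci, among 9057 genes averaging 10 CPM or more, genes with a pattern like that of Ighd included Hdac10 (r = 0.982) and Unc45a (0.982). For Ighm the nearest were Txndc5, a protein disulphide isomerase (0.966), St6gal1 (0.959) and Ms4a6b (0.950), and for Igkc they were Mzb1, a chaperone of antibody-secreting cells (0.926), Txndc5 (0.923) and Ms4a4b (0.911). The nearest to Ighg1 were Jchain (0.933), Abtb2 (0.911) and Edem1 (0.894), and those near Ighg2b included Jchain (0.8289) and Hid1 (0.790). Ighg2c was nearest to Prkcq (0.840), Jchain (0.834) and Hid1 (0.821), Ighg3 to Serpina3n (0.8287), Edem1 (0.804) and Hid1 (0.801), and Igha to Serping1 (0.879), Pkp4 (0.873) and Pdk4 (0.870). Of the plasma cell list, Jchain, Mzb1 or Edem1 thus appeared beside Igkc and each IgG gene, and no gene of that list was among the 3 nearest to Ighm, Ighd or Igha. This contrast depends on the genes listed, since Txndc5, near both Ighm and Igkc, is not on the list. For the IgG genes these patterns, too, rest largely on the globin-poor libraries.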

How the data were processed

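The authors deposited 1 table of raw counts per gene for each of 12 libraries; per the submitters' processing notes, HISAT2 2.0.4, HTSeq, Trimmomatic 0.36, SAMtools 0.1.19 and FastQC were used, and GRCm38 and mm10 are the named builds. Annotation release, strand setting and read length are not given in the sources used here. Identifiers were named by GENCODE vM21 (46005 of 46603). CPM leaves 8 globin genes out of the total. Differences were tested in edgeR 4.0.16 (R 4.3.3; filterByExpr, TMM, robust quasi-likelihood fits, Benjamini-Hochberg over all genes tested, called at adjusted p under 0.05), and shares by exact two-sided permutation. DESeq2 1.42.0, limma-voom (limma 3.58.1), other scalings, no filter, added terms, replicate number as a block and each library left out in turn were the alternatives. On simulated counts with 200 changed genes, the test of genotype in globin-poor libraries called 4.29% of those changed 2-fold, 79.3% of those changed 4-fold and 93.0% of those changed 8-fold (16040 genes); that in libraries labelled blood called 0% at each size (13725 genes), and that of kind called 39.1%, 84.7% and 95.8% (15963 genes). No 2 libraries agreed within sampling noise (smallest chi-square per degree of freedom 7.17). Members and lists were chosen with earlier results of these data known. All 10 members are named, with up to 3 called genes of smallest p per list and the 3 genes most like each of 8 members, of which some are not reported here.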

Additional observations from a re-analysis of the deposited data

Results flagged for a closer look

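Within each kind of 6 libraries, 30 groups were examined (levels of the 10 members and the 5 tested shares), as CPM and percent without a log. In 3 of them Dixon's 95% critical value set a library apart from the other 5. That value assumes independent, normally spread values, which skewed levels and shares of a common total need not be. No rate by chance is therefore given. Ighg3 lay at 3375 CPM in spleen KO 04, and the next globin-poor library at 245. Iglc1 lay at 493 CPM in the same library, and the next at 203. Ighg2c lay at 1.22 CPM in the globin-rich library labelled spleen WT 04, on 5 counts, and the next at 0.536.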

How the results depend on the processing

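Over 1340 recomputed values, some of them counts of genes, 28 fitted differences changed direction. That number leaves out sign changes of the genotype share differences and the members' fits within tissue labels. Leaving out single libraries turned the sign for Igkc in globin-rich (-0.52 to 0.51 points) and Ighm in globin-poor libraries (-8.93 to 0.84). In blood labels it turned for Ighm (-0.21 to 8.84), IgG (-3.94 to 1.63) and Igkc (-5.32 to 0.55). In spleen labels it turned for Igha (-6.24 to 5.79). For globin-rich against globin-poor libraries, 14496 genes were called with library size only, 14140 without the filter and 7672 to 10172 without each library in turn, against 9110; Ighd gave -1.33 with library size only, -0.30 with total counts without globin and 0.50 (edgeR, adjusted p = 0.069) without the filter. For KO against WT in globin-rich libraries, genes called numbered 121 without the filter, 31 with DESeq2 and 0 to 483 without each library in turn (483 without blood KO 02). There Iglc1 turned to 0.19 with library size only and 0.17 with total counts without globin, and ran from -0.30 to 0.044 without each library in turn (above 0 without spleen WT 04), and Ighg2b from -0.12 (without blood KO 03) to 0.61. In globin-poor libraries DESeq2 called 5 genes, and without each library in turn Ighd ran from -0.16 to 0.11 (above 0 without blood KO 04, at 0.023, and without spleen WT 01), Iglc1 from -0.24 to 0.78 and Iglc2 from -0.0045 to 0.37 (both lowest without spleen KO 04).

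For the difference of the KO effect between labels, 9 genes were called without the filter and 4 with DESeq2. There Ighd turned to 0.15 with library size only and 0.16 with total counts without globin, and Igha to 0.13 and 0.12 under the same scalings, 0.014 with limma-voom and 2.39 without the kind term, where Ighg2c was 2.13. Without each library in turn, this difference ran from -0.21 to 0.51 for Ighm, from -0.45 to 0.22 for Ighd, from -1.07 to 2.45 for Ighg3, from 0.91 to 4.68 for Ighg1, from -0.24 to 2.25 for Ighg2b, from -2.12 to 0.25 for Ighg2c and from -0.63 to 0.21 for Igha. In the added fit over 12 libraries, leaving out the filter called 55 genes, among them the 3 members Ighg3 (1.69), Ighg2b (1.47) and Ighg2c (1.37), DESeq2 called 1 gene, and Iglc1 ran from -0.14 (without spleen KO 04) to 0.30 without each library in turn. The causes were not tested.

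The labels number libraries alike across groups, but same-numbered libraries correlated at -0.78 to 0.67 after group means were removed, with the sign following their kind, so this check cannot show whether the numbers pair them, and the labels do not say. With the number as a replicate block, Igha gave 0.11 for the difference of the KO effect between labels and Ighg2c gave 2.84 for KO against WT in globin-poor libraries, and no gene was called in any genotype comparison so fitted. In globin-rich libraries the genotypes share only number 02, and no such fit was made. The globin-rich IgG values rest on 0 to 13 counts per gene and library, so their counting error is wide. Within kinds, 3 against 3 libraries cannot give a permutation p below 0.1.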

Other observations

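The lambda variable genes Iglv1 and Iglv2 were highest in spleen KO 04, the library with the most Iglc1. Iglv1 lay at 433 CPM in spleen KO 04 and at 65.8 to 147 CPM in the other 5 globin-poor libraries. Iglv2 lay at 148 CPM there and at 25.3 to 35.1 CPM in the others, and Iglv3 at 35.5 against 17.1 to 30.5 CPM, a smaller gap. In globin-rich libraries Iglv1 lay at 12.4 to 32.1 CPM, Iglv2 at 3.70 to 8.94 and Iglv3 at 7.18 to 33.4, so Iglv3 alone overlapped between the kinds.

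Pigr, the epithelial receptor that carries polymeric IgA and IgM across mucosae, lay between 0 and 1.72 CPM in the globin-rich kind and between 1.28 and 2.36 CPM in the globin-poor kind. Its counts were 0 to 10 and 30 to 61 per library.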
